A study of Gossypium hirsutum with 9 samples.

Results

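A set of 195 probes of the cotton array had lower mean signals at 1 day post anthesis (DPA) than at -1 DPA in both the lintless-fuzzless line XinWX and the linted-fuzzless line XinFLM. These probes are called falling probes here. They were chosen by their measured signal out of 29183 different cotton probes. In each line the mean over 3 arrays had to fall by 1.5 or more on the log2 scale from -1 to 1 DPA. The signal had to be 400 units or more after background subtraction in both lines on all arrays of -1 DPA, and the mean difference between the lines had to be under 0.7 at -1 and at 1 DPA. Probes that the study names in its PCR comparisons were to be left out, and none of them met the other conditions. The fall from -1 to 1 DPA is therefore the selection itself and is described without a test.

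The RNA came from ovule and fiber mixtures of field-grown upland cotton, *Gossypium hirsutum*, at -1, 0 and 1 DPA. XinWX seeds carry neither lint nor fuzz. XinFLM, a near-isogenic line derived from it, carries lint but no fuzz. Both are thus fuzzless, and neither stands for a fully fibered cotton. Each of 9 dual-dye arrays, 3 per stage, was hybridized with RNA of both lines at the same stage. On replicates 1 and 3 XinWX carried Cy3 and XinFLM Cy5, and on replicate 2 the dyes were interchanged. The design text counts the 3 arrays of a stage, the swapped one among them, as biological replicates. The methods count only 2 such replicates beside the swap, so that the spread between arrays may be technical in part.

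Cotton fibers are single cells that grow out of the epidermis of the outer integument of the ovule. The cells that become lint enlarge and protrude from this layer around the day of anthesis. Besides this layer the ovule holds the rest of the integuments, the nucellus and the embryo sac, and pollination and fertilization take place in the same days. Less RNA per cell and fewer cells that hold a transcript cannot be told apart in such mixtures. The probes carry plate and well IDs, which are not paired with genes in the tables used here, and they are therefore described by ID, without gene names or sequences.

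A level is the log2 of the background-subtracted signal, with values under 100 units set to 100 units, minus the median of the cotton probes in the same channel. A level of 0 is thus the signal of the middle cotton probe on that array, and a level is relative to the other probes. The channel medians lay between 694 and 1664 units, with both extremes on the replicate 3 array of 1 DPA. The 2 lines on an array were read from the same spots, so that their values share any property of the spot and are not independent of each other. Of the 19036 probes that had 400 units or more at -1 DPA, 379 fell by 1.5 or more in XinWX and 780 in XinFLM. Both lines fell by that much for 245 of them, or 1.29%, and 195 of these also met the limit on the line difference. The mirrored rule, applied to probes that rise, found 86 probes.

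By the mean over 3 arrays, the typical falling probe lay above the middle cotton probe before anthesis and below it at 1 DPA. In XinWX the median over the 195 probes of the mean level was 0.89 at -1 DPA, 0.60 at 0 DPA and -1.11 at 1 DPA. In XinFLM it was 1.01, 0.73 and -1.11. All probes with 400 units at -1 DPA had medians of 0.91, 0.85 and 0.81 in XinWX and of 0.91, 0.88 and 0.88 in XinFLM, so that the falling probes started at the level of the others. The fall reached up to 4.23 in XinWX with a median of 1.86, and up to 4.85 in XinFLM with a median of 2.04.

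The 3 arrays of 1 DPA did not show the fall alike. In XinWX the median level of the falling probes was -1.53 on replicate 1, -2.18 on replicate 2 and 0.25 on replicate 3. In XinFLM it was -1.49, -2.56 and 0.19 on the same arrays. The replicate 3 array thus lay between the other 1 DPA arrays and the arrays of the earlier stages, whose medians ran from 0.53 to 1.18. The SD over the 3 arrays of a stage had a median of 1.39 in XinWX and 1.41 in XinFLM at 1 DPA, against 0.35 and 0.34 at -1 DPA. Among all probes with 400 units at -1 DPA the median SD at 1 DPA was 0.41 in XinWX and 0.50 in XinFLM. The rule set no limit on the spread at 1 DPA.

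**Figure D1:**
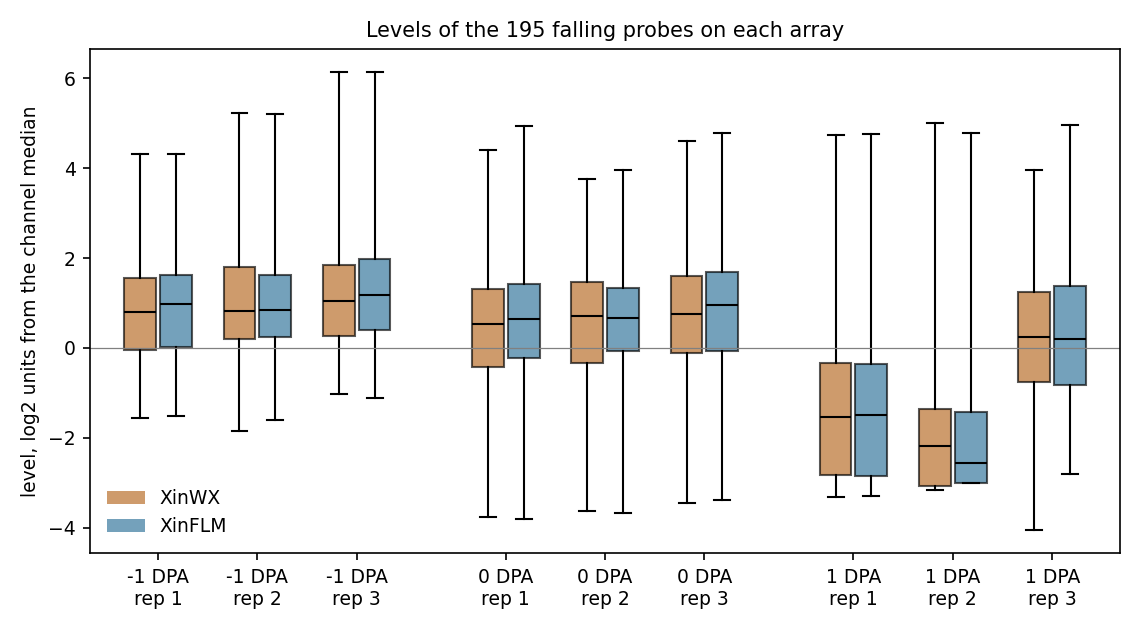
Levels of the 195 falling probes (y axis, log2 units from the channel median) on each of the 9 arrays (x axis), for XinWX (brown) and XinFLM (blue). Boxes span the quartiles with the median as a line and whiskers reach the lowest and highest probe; the boxes of 1 DPA replicates 1 and 2 lie below 0, while the medians of 1 DPA replicate 3 are 0.25 in XinWX and 0.19 in XinFLM.

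Measured from the -1 DPA mean, a fall of 1.5 or more was seen in XinWX for 157 of the 195 probes on replicate 1 of 1 DPA, for 180 on replicate 2 and for 30 on replicate 3. In XinFLM the numbers were 160, 185 and 35. In both lines together 134 probes fell by 1.5 or more on replicates 1 and 2 but not on replicate 3, and 34 did so on replicate 2 alone. Another 4 did so on replicate 1 alone, 9 on replicate 3 and on neither of the others, and 7 on replicate 3 and 1 of the others. Only 7 probes (3.59%) fell by 1.5 or more on each of the 3 arrays in both lines, and 30 (15.4%) fell by 1 or more on each. For 163 probes the smallest fall was on replicate 3, and 57 probes had at least 1 array of 1 DPA at or above the -1 DPA mean in a line.

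The selection followed the same arrays. Without replicate 3 of 1 DPA the rule found 546 probes, 175 of the 195 among them. Without replicate 2 it found 90, of which 73 were among the 195, and without replicate 1 it found 172, of which 111 were. Leaving out an array of -1 DPA gave between 208 and 241 probes. Across the 195 probes, which share each array and are not independent, the levels of 2 arrays of a stage within a line correlated at r = 0.745 to 0.917 at -1 DPA and at 0.786 to 0.880 at 0 DPA, but at 0.0294 to 0.497 at 1 DPA. The rule chose these probes on the mean of the same 1 DPA arrays, which can by itself lower r there. How far it did so was not tested. Between the lines on the same array r was 0.928 to 0.968. Over all probes with 400 units at -1 DPA the arrays of 1 DPA correlated at 0.744 to 0.887.

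**Figure D2:**
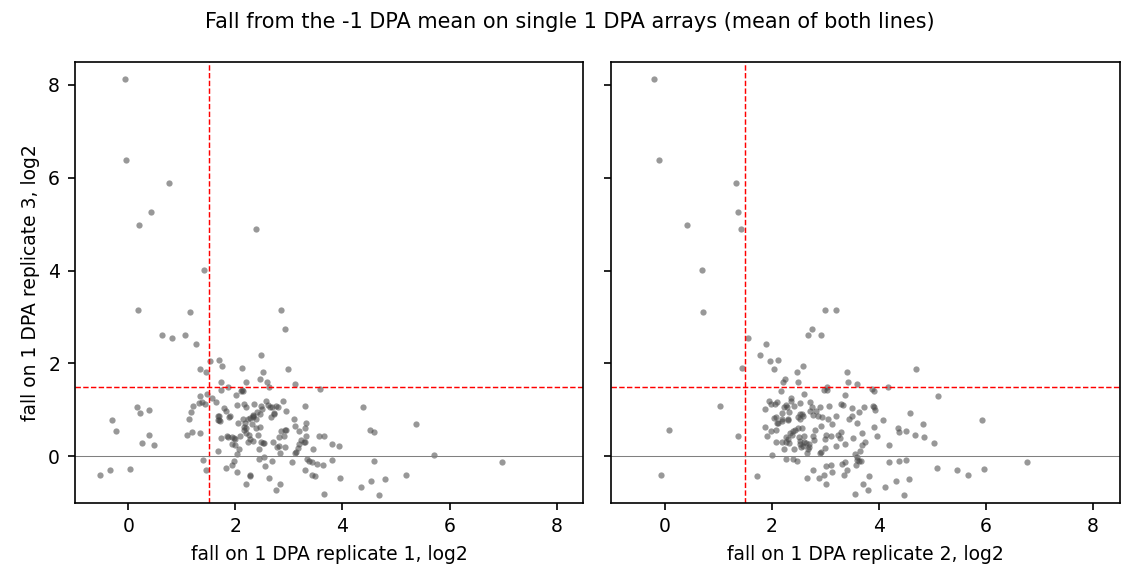
Fall from the -1 DPA mean, averaged over both lines, on replicate 3 of 1 DPA (y axis, log2) against the fall on replicate 1 (left) and on replicate 2 (right), each point being 1 of the 195 falling probes. Dashed lines mark a fall of 1.5; most points lie to the right of the vertical line and under the horizontal one, as replicate 3 showed a fall of 1.5 for 30 probes in XinWX and 35 in XinFLM.

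The levels of the 3 arrays of 1 DPA all lay under those of the 3 arrays of -1 DPA for 108 falling probes in XinWX, where 12.7% of all probes with 400 units at -1 DPA did so, and for 122 in XinFLM, against 16.3%. In both lines this held for 91 probes (46.7%), against 7.23%. These counts use the contrast that chose the probes and add no support to it. For the rest the arrays of the stages overlapped in at least 1 line.

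The 2 largest mean falls belonged to probes that were near the floor of 100 units on some arrays of 1 DPA. Probe 28K_210_B10 had XinWX levels of 3.42, 3.61 and 3.07 on the 3 arrays of -1 DPA and of 2.93, 3.51 and 3.23 at 0 DPA. At 1 DPA its XinWX levels were -3.31, -3.17 and 3.88. The first 2 of these were signals of -28 and 11 units, set to the floor, while replicate 3 gave 24521 units, the highest XinWX level of the 9 arrays. XinFLM followed the same course, with levels of -3.31, -3.01 and 3.74 at 1 DPA after 3.84, 4.11 and 4.04 at -1 DPA. The mean fall over both lines of 4.54 became 6.88 without replicate 3 and 3.32 without replicate 1. The spots of replicates 1 and 2 of 1 DPA carried a flag of -100 from the scanner software, and that of replicate 3 did not. The meaning of this flag is not given. Only if the flagged spots are taken as measured is each of these falls a lower bound because of the floor.

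Probe 28K_230_E12 showed the same split. Its XinWX levels were 2.36, 2.79 and 2.11 at -1 DPA and -2.89, -1.98 and 2.01 at 1 DPA, with a mean of 1.79 ± 0.42 (SD, n = 3 arrays) at 0 DPA. In XinFLM they were 1.96, 2.23 and 2.58 at -1 DPA, 2.14, 1.49 and 2.76 at 0 DPA and -3.19, -3.01 and 1.26 at 1 DPA. In XinWX replicate 3 of 1 DPA lay just under the lowest array of -1 DPA, whereas replicates 1 and 2 lay far below it. The mean fall of this probe was 3.64 over all arrays and 5.11 without replicate 3. Its spots on replicates 1 and 2 of 1 DPA carried the flag of -100, and that on replicate 3 did not.

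The probes at the edge of the selection were less extreme. Just inside the limit were 28K_189_H02, with a fall of 1.5 in XinWX and 1.84 in XinFLM, and 28K_172_E06, with 1.51 and 1.60. Just outside, with a fall in XinWX that rounds to the limit, were 28K_275_E03, whose fall in XinFLM was 2.53, and 28K_210_H08, whose fall in XinFLM was 1.96. For 28K_189_H02 the XinWX levels were 1.46, 0.94 and 1.89 at -1 DPA and 0.23, -1.63 and 1.20 at 1 DPA. Its mean fall over both lines was 1.67, and it was 0.86 without replicate 2 of 1 DPA. Membership of probes this close to the limit thus turned on single arrays.

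The 7 probes that fell by 1.5 or more on each array of 1 DPA in both lines were 28K_075_D08, 28K_296_E01, 28K_137_H08, 28K_204_E08, 28K_119_C01, 28K_262_B12 and 28K_190_B10. They were singled out after the values had been seen, and 5 of them carried the flag of -100, a mark of the scanner software, on all 3 arrays of 1 DPA. Their smallest fall on any array and in either line ran from 1.51 for 28K_190_B10 to 2.73 for 28K_075_D08. Probe 28K_075_D08 had XinWX levels of 2.69, 1.55 and 0.61 at -1 DPA and of -1.11, -1.32 and -1.55 at 1 DPA. Its XinFLM levels were 3.22, 1.44 and 1.35 before and -0.99, -1.45 and -1.13 after. All arrays of 1 DPA lay below all arrays of -1 DPA, and leaving out single arrays of 1 DPA gave mean falls of 3.01 to 3.17 around the 3.07 of all arrays. With single arrays of -1 DPA left out as well, the range was 2.50 to 3.48. This probe carried the flag of -100 on all 3 arrays of 1 DPA.

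Probe 28K_296_E01 declined in steps. In XinWX it had a mean level of 0.04 ± 0.31 (SD, n = 3 arrays) at -1 DPA, -1.96 ± 0.03 at 0 DPA and -2.95 ± 0.09 at 1 DPA. In XinFLM the means were -0.41 ± 0.30 at -1 DPA and -1.56 ± 0.08 at 0 DPA, and at 1 DPA all 3 signals were under the floor, so that its level there is only an upper bound and its fall a lower bound. The arrays of the 3 stages did not overlap in either line. The probe carried the flag of -100 on replicate 1 of -1 DPA and on all arrays of 0 and 1 DPA. The signal of this probe was modest, with 780.5 to 1667.5 units at -1 DPA and -42 to 200 units at 1 DPA, and its mean fall of 2.81 became 3.26 with a floor of 50 units and 2.09 with a floor of 200 units.

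Most falling probes were dim on replicates 1 and 2 of 1 DPA. In XinWX 54.9% of them gave under 400 units on replicate 1, 77.9% on replicate 2 and 8.72% on replicate 3, and in XinFLM 53.3%, 80.0% and 25.6%. On replicate 3 the channel median was 1664 units for XinWX and 694 for XinFLM, so that a limit in units is not alike in the 2 lines there. At least 1 array of 1 DPA was under the floor of 100 units for 63 probes in XinWX and for 97 in XinFLM, so that these falls are lower bounds. At 0 DPA between 8 and 14 of the 195 were under 400 units in a channel. The scanner software also gives each spot a flag of 100 or -100, whose meaning is not given in the sources used here. The flag of -100 was carried by 137 falling probes (70.3%) on replicate 1 of 1 DPA, 159 (81.5%) on replicate 2 and 38 (19.5%) on replicate 3. Among all probes with 400 units at -1 DPA the shares were 17.7%, 17.4% and 8.69%. On the other 6 arrays 1 to 20 of the falling probes carried it.

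Smaller sets met 1 of these limits each, and the fall itself bears on which probes meet them. Of the 195 probes, 18 carried no flag of -100 at 1 DPA. Their median fall in XinWX was 1.98 on replicate 1, 2.37 on replicate 2 and 0.85 on replicate 3, and in XinFLM 2.16, 2.45 and 0.63. In 11 of the 18 (61.1%) all arrays of 1 DPA lay below all arrays of -1 DPA in both lines. Another set, of 24 probes, gave 400 units or more in both channels on all 9 arrays. Its median falls were 2.10, 2.37 and 0.60 in XinWX and 2.36, 2.57 and 0.56 in XinFLM. For 13 of the 24 (54.2%) the arrays of the 2 stages were apart in this way in both lines. The share was 46.7% of all 195 falling probes and 7.23% of all probes with 400 units at -1 DPA. As before, such counts use the contrast that chose the probes and lend it no support. No probe of either set fell by 1.5 or more on each array of 1 DPA in both lines.

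The falling probes were unevenly placed on the slide. The array was printed in 48 blocks, of which 40 held a falling probe and 35 held 1 to 6. Blocks 6 and 7, side by side, held 33 and 23 of them, block 4 held 13, block 35 held 11 and block 36 held 10. These 5 blocks carried 90 falling probes (46.2%), against 10.4% of the probes with 400 units at -1 DPA, and 2 of the 86 rising probes. IDs that end in C12 (24 probes) and in E12 (17 probes) were the most frequent, and all of these probes were in the 5 blocks, as were nearly all of the 304 cotton probes with each ending. The 195 probes came from 124 different plates, with at most 8 from the same plate.

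These blocks as a whole were also lower on replicates 1 and 2 of 1 DPA, by medians that include the falling probes themselves. Averaged over both lines, the median change from the -1 DPA mean of all probes of the 5 blocks with 400 units at -1 DPA was -0.60 on replicate 1 of 1 DPA, -0.87 on replicate 2 and 0.12 on replicate 3. In the other blocks it was -0.12, -0.02 and 0.05. Single blocks of the others were as low on replicate 1, where the 5 blocks had medians of -0.89 to -0.47. Block 41, with 4 falling probes, had a median of -0.80 there. On replicate 2 the 5 blocks had medians of -1.13 to -0.75, and the lowest of the others was -0.60. The falling probes of the 5 blocks had median changes of -2.54, -2.73 and -0.52 on the 3 arrays, and those of the other blocks of -2.09, -2.90 and -0.80. Of the 7 probes that fell on each array 1 was in the 5 blocks and 6 were elsewhere. When each channel was centered on the median of its print block, the rule found 133 probes, 112 of the 195 among them. The part of the slide position, the flags and the dim spots in the fall was not tested.

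**Figure D3:**
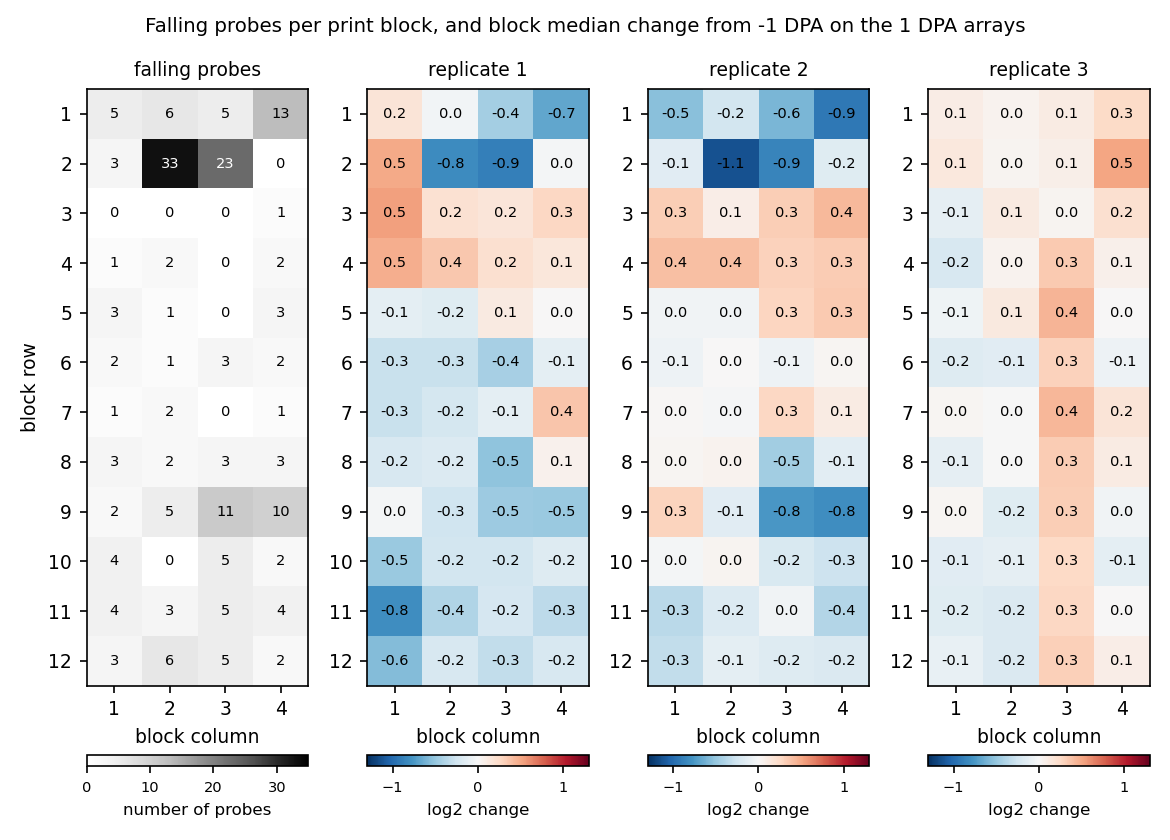
The 48 print blocks of the slide by block row and block column. The left panel gives the number of falling probes per block, and the other panels give the median log2 change from the -1 DPA mean, averaged over both lines, of all probes with 400 units at -1 DPA on each 1 DPA array; the blocks with 33 and 23 falling probes are among the lowest on replicates 1 and 2 (-0.82 and -1.13 for the first) and near 0 on replicate 3 (0.04).

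The stage of 0 DPA was not used by the rule, although the share of the fall reached by then depends on both ends that were. A share of 0 means a level equal to -1 DPA and a share of 1 a level equal to 1 DPA. By the means over 3 arrays, most of the decline lay between 0 and 1 DPA. The rule chose probes with low means at 1 DPA, which can by itself place the decline there, and how far it did so was not tested. On replicate 3 of 1 DPA the median fall in XinWX was 0.55, against 0.16 to 0.38 on the arrays of 0 DPA. In XinFLM it was 0.73, against 0.10 to 0.35. The median share at 0 DPA was 0.15 in XinWX and 0.13 in XinFLM. On single arrays of 0 DPA the median share was 0.20, 0.14 and 0.08 in XinWX and 0.15, 0.17 and 0.06 in XinFLM. Without replicate 3 of 1 DPA the medians were 0.11 and 0.10, and without replicate 2 they were 0.22 and 0.18. By 0 DPA the 86 rising probes had reached a median of 0.62 of their change in XinWX and 0.46 in XinFLM. Both lay above the shares of the falling probes, without a test of the difference. Falling probes had to be bright at -1 DPA and rising ones at 1 DPA, which can by itself set the shares apart. The median SD of the falling probes was 1.39 in XinWX and 1.41 in XinFLM at 1 DPA, against 0.35 and 0.34 at -1 DPA. For the rising probes it was 0.43 and 0.53 at 1 DPA, against 0.56 and 0.54 at -1 DPA. How far the selection made the contrast in shares was not tested, and no difference in timing is drawn from it.

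In XinWX 86.7% of the 195 probes had less than 0.5 of the fall behind them at 0 DPA, and 28.2% were above their -1 DPA mean. In XinFLM the shares were 91.8% and 26.7%. The 0 DPA mean lay within the range of the 3 arrays of -1 DPA for 86 probes in XinWX and 88 in XinFLM. All arrays of 0 DPA lay under all arrays of -1 DPA for 45 probes in XinWX, against 12.6% of all probes with 400 units at -1 DPA, for 39 in XinFLM, against 13.3%, and for 26 (13.3%) in both, against 5.44%. All arrays of 1 DPA lay under all arrays of 0 DPA for 70 probes in XinWX, against 10.1%, for 94 in XinFLM, against 12.6%, and for 62 (31.8%) in both, against 5.17%. Each of these counts shares a stage with the rule and is a description.

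A share of 0.5 or more was reached in both lines by 12 probes, in XinWX alone by 14 and in XinFLM alone by 4. By the mean of both lines, the largest shares came from 28K_184_A04, with 1.73 in XinWX and 2.05 in XinFLM, and 28K_206_F06, with 1.33 and 1.16. Probe 28K_184_A04 had XinWX levels of -3.75, -3.64 and 1.31 at 0 DPA and of 1.06, 1.02 and -4.06 at 1 DPA, at or near the floor on different arrays of each stage. Its mean fall of 1.86 was 0.31 without replicate 3 of 1 DPA. The flag of -100 was on replicates 1 and 2 of 0 DPA and on replicate 3 of 1 DPA. Probe 28K_206_F06 was dim throughout, with 480 to 865 units at -1 DPA, 66.5 to 152 at 0 DPA and -41.0 to 450 at 1 DPA. In XinFLM its signals at 1 DPA were 81.5, -41 and 51 units, all under the floor, so that its share of 1.16 depends on the floor. Its XinWX levels were -1.26, -1.27 and -0.09 at -1 DPA with a mean of -3.19 ± 0.30 (SD, n = 3 arrays) at 0 DPA, so that it was down on all 3 arrays of 0 DPA. Its mean fall of 1.90 was 1.15 with a floor of 200 units. The probe carried the flag of -100 on all arrays of 0 and 1 DPA.

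The smallest shares, by the mean of both lines, belonged to probes whose mean level was higher at 0 DPA than at -1 DPA. Probe 28K_051_A05 had a share of -0.33 in XinWX and -0.32 in XinFLM. Its XinWX levels were 1.61, 1.65 and 1.05 at -1 DPA, 2.27, 2.53 and 2.48 at 0 DPA, and -3.31, -3.17 and 1.82 at 1 DPA. The 0 DPA arrays were all above the -1 DPA arrays, and so was replicate 3 of 1 DPA. Its mean fall over both lines was 2.95, and 4.68 without that array. Probe 28K_184_E12 had shares of -0.37 and -0.27, with XinWX levels of 0.88, 0.37 and 0.89 at 0 DPA and of -3.04, -2.75 and 0.65 at 1 DPA. Its mean fall was 1.75, against 2.92 without replicate 3 of 1 DPA and 1.12 without replicate 2. Both 28K_051_A05 and 28K_184_E12 carried the flag of -100 on replicates 1 and 2 of 1 DPA and not on replicate 3. All arrays of 0 DPA lay above all arrays of -1 DPA for 9 falling probes in XinWX, against 8.68% of all probes with 400 units at -1 DPA, and for 10 in XinFLM, against 11.7%.

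**Figure D4:**
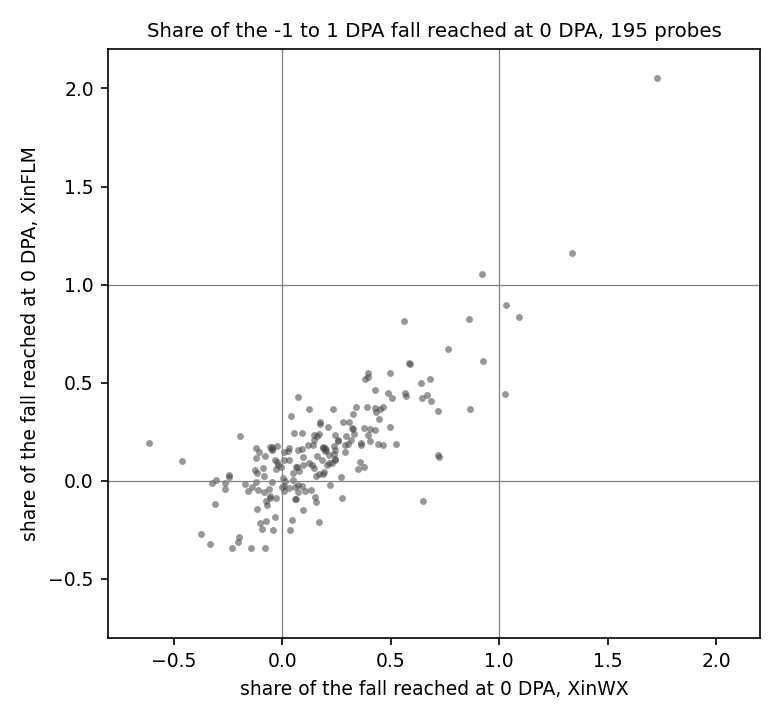
Share of the fall from -1 to 1 DPA that was reached at 0 DPA in XinWX (x axis) and XinFLM (y axis), each point being 1 of the 195 falling probes; grey lines mark shares of 0 and 1. Of the 195 points 165 lie under 0.5 in both lines, around the medians of 0.15 and 0.13, and both values of a point come from the same arrays and spots.

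The difference between XinWX and XinFLM at 0 DPA is the only comparison of the falling probes that their selection did not use. It asks whether probes chosen for similar levels in the 2 lines at -1 and 1 DPA differed on the day of anthesis, when fiber initials emerge on linted ovules. Log2 ratios of XinWX over XinFLM were tested with limma over 22654 probes, and a probe was called where the ratio was 2-fold or more and the adjusted p (the false discovery rate, FDR) was under 0.05. Of the 195 falling probes 190 were tested and 5 were too faint. Among them 3 were called, where 1.48% of all probes tested were called. A single one was higher in XinWX (0.446% of all probes) and 2 were higher in XinFLM (1.03%).

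Probe 28K_269_C12 was higher in XinWX at 0 DPA. Its XinWX levels were 1.04, 1.03 and 1.62 at -1 DPA, 2.32, 2.45 and 2.40 at 0 DPA, and -1.22, -1.75 and 0.95 at 1 DPA. Its XinFLM levels were 1.49, 1.19 and 1.73, then 0.80, 0.87 and 1.23, then -2.33, -1.42 and 0.43. By the mean, the probe thus peaked at 0 DPA in XinWX and was highest at -1 DPA in XinFLM, where the arrays of -1 and 0 DPA overlapped. At 0 DPA the lines did not overlap. The loess-normalized log2 ratio was 1.53, 1.54 and 1.25 on the 3 arrays, a 2.71-fold difference (log2 1.44, standard error 0.13, adjusted p = 1.22e-05 in limma). It stayed called in all 21 alternative settings of the test.

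Both probes that were higher in XinFLM rested on closer margins. For 28K_092_D07 the XinWX levels at 0 DPA were -0.19, 0.36 and 0.82 and the XinFLM levels 1.04, 1.43 and 1.70. The log2 ratio was -1.18, -1.05 and -0.77 on the 3 arrays and -1.00 in the fit (standard error 0.12, adjusted p = 0.000166), at the fold limit. The call was lost in 5 of 21 alternative settings, where the log2 ratio was -0.91 without replicate 1 and -0.98 without replicate 2 of 0 DPA. For 28K_085_A01 the spot of replicate 1 was too faint, and the log2 ratio was -1.70 and -0.92 on the other arrays of 0 DPA (fit -1.31, standard error 0.20, adjusted p = 0.00131), which leaves 2 arrays. Without either of these arrays the probe could not be tested.

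The other tested probes differed less between the lines. At the FDR alone, with no fold limit, 13 of the 190 passed, the called probes among them, against 7.93% of all probes. Of the 13, 12 were higher in XinFLM (4.29%) and 1, the called probe 28K_269_C12, was higher in XinWX (3.65%). An unadjusted p under 0.05 was reached by 42 of the 190, where 21.7% of all probes did so. The log2 ratios of the 190 ran from -1.31 to 1.44 with a median of -0.08, and 114 (60.0%) were below 0, against a median of -0.01 and 51.1% over all probes tested. By the levels, the median line difference of the 195 falling probes was -0.09 at 0 DPA and already -0.09 at -1 DPA, a stage that the rule used. The 95% interval of the ratio lay wholly within a 2-fold difference for 184 of the 190 (96.8%), as it did for 95.3% of all probes. Neither of the probes with the largest mean falls was called, with log2 ratios of -0.18 for 28K_210_B10 (adjusted p = 0.513 in limma) and -0.27 for 28K_230_E12 (adjusted p = 0.396). Of the probes with steady falls, 28K_075_D08 had a ratio of -0.03 with a 95% interval of -0.35 to 0.29.

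**Figure D5:**
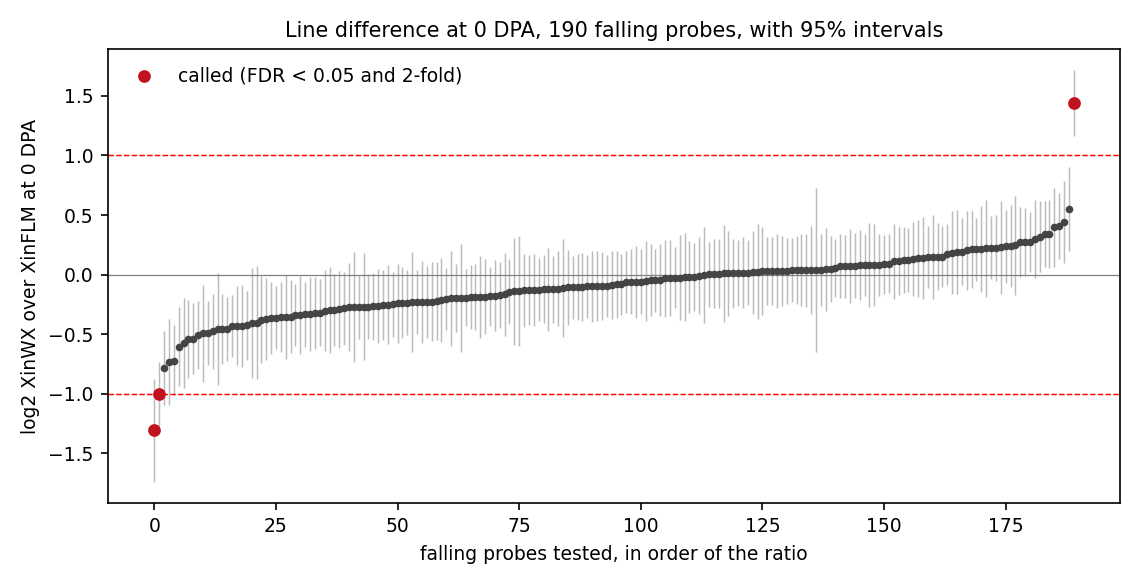
Log2 ratio of XinWX over XinFLM at 0 DPA (y axis) of the 190 falling probes that were tested, in order of the ratio (x axis), with 95% intervals from the limma fit as vertical lines. Dashed lines mark a 2-fold difference, and the red points are the 3 called probes at -1.31, -1.00 and 1.44.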

How the data were processed

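Per the file headers, the deposited scanner files give the intensity and local background of each spot in the Cy5 and Cy3 channels and a flag, with no normalization. The authors' table of log2 ratios, normalized within arrays and with the dye swap not turned, had medians of -0.00915 to 0.0082 per array and correlated with the ratios computed here at r = 0.944 to 0.998. It served as an alternative. Tools listed in the submitters' processing notes are R 2.12.2 and limma 3.4.5. No column of other samples was found (0).

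The falling probes, their limits and the alternatives were chosen with earlier results of these data known. Levels were computed from the median intensity minus the median background, and the 2 spots of 1 probe were averaged. For the line difference at 0 DPA, spot and background medians went through limma's normexp correction with an offset of 50 (limma 3.58.1, R 4.3.3), spots under 400 units in both channels were left out, and ratios were normalized by loess (span 0.3, 4 iterations). All 9 arrays were fitted with 1 coefficient per stage, probes kept on at least 2 arrays of 0 DPA were tested, and the Benjamini-Hochberg adjustment covered all of them. Both scripts were tested on simulated data. The number of arrays limits the precision.

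Probes named were those with the 2 largest mean falls, the 2 nearest the limit on each side, the 2 largest and the 2 smallest shares at 0 DPA (mean of both lines), and the called line differences (at most 2 per direction). The alternatives covered the floor, background correction, scaling, limits of the rule, faint spots, dye, replicate number and leaving out each array. Centering by print block, loess within print blocks, the flag and the fall on each array were added after seeing the data. Same-numbered arrays of -1 and 0 DPA had ratios that deviated together (r = 0.140, 0.257 and 0.128), but those of 1 DPA did not, so that the numbers were not taken as pairs. Python 3.11.15 with matplotlib 3.10.9 drew the plots.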

Additional observations from a re-analysis of the deposited data

Results flagged for a closer look

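By the means, probe 28K_269_C12 moved in opposite directions in the 2 lines from -1 to 0 DPA. On each of the 3 arrays of 0 DPA its XinWX level was above the -1 DPA mean of 1.23 and its XinFLM level was below the -1 DPA mean of 1.47. In XinWX all arrays of 0 DPA lay above all arrays of -1 DPA, whereas in XinFLM the arrays of these stages overlapped. The change in XinWX exceeded that in XinFLM by 1.66 on the log2 scale, and this difference of changes was not tested. The lines were read from the same spots with different dyes, and the direction was the same on the dye-swapped array.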

How the results depend on the processing

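The number of falling probes was 690 with a fall of 1 or more, 58 with 2 or more, 18 without flags of -100 and 7 with a fall of 1.5 on each 1 DPA array. Leaving out single arrays gave 90 (without 1 DPA replicate 2) to 546 (without 1 DPA replicate 3). The other 12 of 18 settings stayed within 1.5 times of 195.

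The median share of the fall at 0 DPA in XinWX was 0.21 for the 24 probes with 400 units on all 9 arrays, and 0.11 to 0.22 over single arrays left out (highest without 1 DPA replicate 2). For the 7 probes that fell on each array it was 0.32 in XinWX and 0.21 in XinFLM.

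At 0 DPA 13 of the 190 falling probes tested differed at the FDR alone, against 7.93% of all probes tested. Of these 13, 12 were higher in XinFLM, against 4.29% of all probes tested. Leaving out single arrays gave 1 to 3 called, of which 0 to 2 were higher in XinFLM, with 1 in all without 0 DPA replicate 2. With a dye term, with replicate 1 averaged with the swapped array, and with loess within print blocks, 1 was higher in XinFLM. The replicate block gave 3 called and changed no call. The probe higher in XinWX was called in all 21 settings.

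Ratios near 0 changed sign. For 28K_051_A05 (0.03) the ratio was -0.0277 with median centering, -0.0410 with the averaged arrays and -0.0701 to 0.172 over single arrays left out. For 28K_184_E12 (0.05) it was -0.00256 with the averaged arrays and -0.0572 to 0.143 over single arrays left out. For 28K_075_D08 (-0.03) it was 0.0343 with a dye term and -0.0768 to 0.0291 over single arrays left out. The cause was not tested.

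The precision is limited by 3 arrays per stage and by both lines being read from the same spots. The floor of 100 units makes the fall a lower bound for 63 probes in XinWX and 97 in XinFLM.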
